A study of Mus musculus with 9 samples.

Results

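The genes of the germline and of the piRNA pathway were followed in E14 mouse embryonic stem cells exposed to 5-ITu (5-iodotubercidin), a derivative of adenosine and a Haspin kinase inhibitor. The 10 genes were Mael, Piwil2, Mov10l1, Ddx4, Dazl, Sycp3, Stk31, Asz1, Tex101 and Tdrd12, named by symbol and each read from its brightest probe set that carries that symbol alone. Of the 10 genes, 6 had such a probe set (Mael, Piwil2, Mov10l1, Ddx4, Dazl and Tdrd12), 1 probe set per gene among the 10476 of the table. The only probe set that names Sycp3, a lateral element protein of the synaptonemal complex, also names Chpt1, so its signal was not assigned to either gene. No probe set of their own was found in the table for Stk31, a Tudor domain kinase of germ cells, Asz1, an ankyrin repeat protein of the germ cell granules, and Tex101, a germ cell surface glycoprotein of the testis, and these genes were not analysed here.

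E14 is an established line, labelled as derived at stage E3.5 and kept undifferentiated here by LIF in medium with serum. For 26 h the cells received DMSO alone, 0.1 μΜ 5-ITu or 1.0 μΜ 5-ITu. There were 3 biological replicates per condition and 1 expression array (Affymetrix Mouse Gene 2.0 ST) for each, 9 in all. The values are log2 signals, on which a difference of 1 is a doubling, and the background threshold of the methods lies at 8.46 on this scale.

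PIWI proteins bind small RNAs, the piRNAs, that guide them to transposon transcripts and transposon loci in germ cells. Helicases and Tudor domain proteins gathered in cytoplasmic granules beside the mitochondria, the nuage, take part in the production of these small RNAs. Outside the germline many of these genes are kept silent through methylation of CG-rich promoters and through a variant Polycomb complex that holds the DNA-binding proteins E2F6, MGA and MAX, and embryonic stem cells are known to transcribe some of them at a low level. In RNA of a whole culture, fewer cells that express a gene and less of its RNA per cell cannot be told apart.

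The 250 bases before the annotated start were read for the members, since the Polycomb complex named above recognises the letters of E2F and E-box motifs. The windows are from RefSeq (GRCm38.p6), which held an entry for 9 of the 10 genes and none for Piwil2. They are printed 5′ to 3′ on the strand of the gene, for 3 genes that rose at 0.1 μΜ and for Dazl, which did not pass the test at either dose. Capitals mark the letters of an E2F motif (TCCCGC, or GCGGGA on the other strand) and of an E-box (CACGTG, its own reverse complement). The windows are chr1:166238745-166238994 on the minus strand for Mael, chr15:88982744-88982993 on the plus strand for Mov10l1, chr13:112652311-112652560 on the minus strand for Ddx4 and chr17:50293621-50293870 on the minus strand for Dazl.
Mael: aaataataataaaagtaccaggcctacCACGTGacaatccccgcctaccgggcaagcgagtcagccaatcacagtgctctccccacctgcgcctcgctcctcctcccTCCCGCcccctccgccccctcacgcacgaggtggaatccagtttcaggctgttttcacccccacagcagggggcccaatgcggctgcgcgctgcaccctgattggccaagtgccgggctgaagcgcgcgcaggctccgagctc
Mov10l1: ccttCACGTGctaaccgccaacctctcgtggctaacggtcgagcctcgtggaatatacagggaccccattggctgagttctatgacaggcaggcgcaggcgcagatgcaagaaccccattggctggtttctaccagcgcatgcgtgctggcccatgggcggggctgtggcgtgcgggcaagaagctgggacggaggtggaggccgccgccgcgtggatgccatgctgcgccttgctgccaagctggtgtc
Ddx4: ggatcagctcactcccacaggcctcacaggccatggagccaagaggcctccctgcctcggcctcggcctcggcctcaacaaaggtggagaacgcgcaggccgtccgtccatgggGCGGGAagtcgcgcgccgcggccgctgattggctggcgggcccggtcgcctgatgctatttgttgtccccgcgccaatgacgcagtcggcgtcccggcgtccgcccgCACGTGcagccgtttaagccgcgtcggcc
Dazl: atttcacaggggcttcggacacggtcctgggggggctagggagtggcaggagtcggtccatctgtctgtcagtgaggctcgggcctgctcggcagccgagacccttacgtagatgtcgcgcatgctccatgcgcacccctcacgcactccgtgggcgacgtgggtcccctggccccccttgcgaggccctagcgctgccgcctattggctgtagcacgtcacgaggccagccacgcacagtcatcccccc

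Mael and Ddx4 each held both motifs, the E2F letters 143 and 136 bases before the start and the E-box 223 and 29 bases before it. Of 32851 RefSeq windows of the same length, 16.9% held the E2F letters, 6.02% an E-box and 1.45% both. Both motifs contain the letters CG, and these shares are over all windows, not over windows of like CG content. Mov10l1 held an E-box 246 bases before its start and no E2F letters. Neither motif was found in the window of Dazl, nor in those before the 2 annotated starts of Tdrd12, which rose at both doses and is not printed. Among the unmeasured members, Sycp3 held both motifs and each of the 2 windows of Stk31 an E-box, whereas Asz1 and Tex101 held neither. The windows of Mael, Mov10l1, Ddx4 and Dazl were rich in CG dinucleotides, with 18, 19, 31 and 20 of them, against a median of 6 over all windows and 6 and 5 before the starts of Tdrd12. The cyclic AMP response element (TGACGTCA) was in none of the members' windows and in 1.55% of all, and the MYB letters AACNG, present in 74.2% of all windows, were missing from those of Dazl and Asz1. These are matches of letters, and no binding or methylation was measured.

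At 0.1 μΜ 5-ITu, the 5 measured members of the piRNA machinery (Mael, Piwil2, Mov10l1, Ddx4 and Tdrd12) were higher than in DMSO, whereas Dazl differed from DMSO by -0.010. Over all tested probe sets, 4.66% were called higher at this dose. When replicate 1, 2 or 3 at 0.1 μΜ was left out, 0, 0 and 1 of the members kept the call. Mael, Ddx4 and Tdrd12, which lay above the background threshold on all 9 arrays, rose by 0.26 to 0.42 log2 units. Piwil2 and Mov10l1 rose by 0.40 and 0.36, from a signal under the threshold. Both were above it on the 0.1 μΜ arrays alone, and 60.4% of the tested probe sets of that kind were called higher. At 1.0 μΜ the genes parted: Ddx4 and Tdrd12 were above DMSO at both doses, and Mael and Piwil2 were lower at 1.0 μΜ than at 0.1 μΜ. Of all tested probe sets, 13.4% rose at 1.0 μΜ against DMSO and 17.4% fell between the doses.

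**Figure D1:**
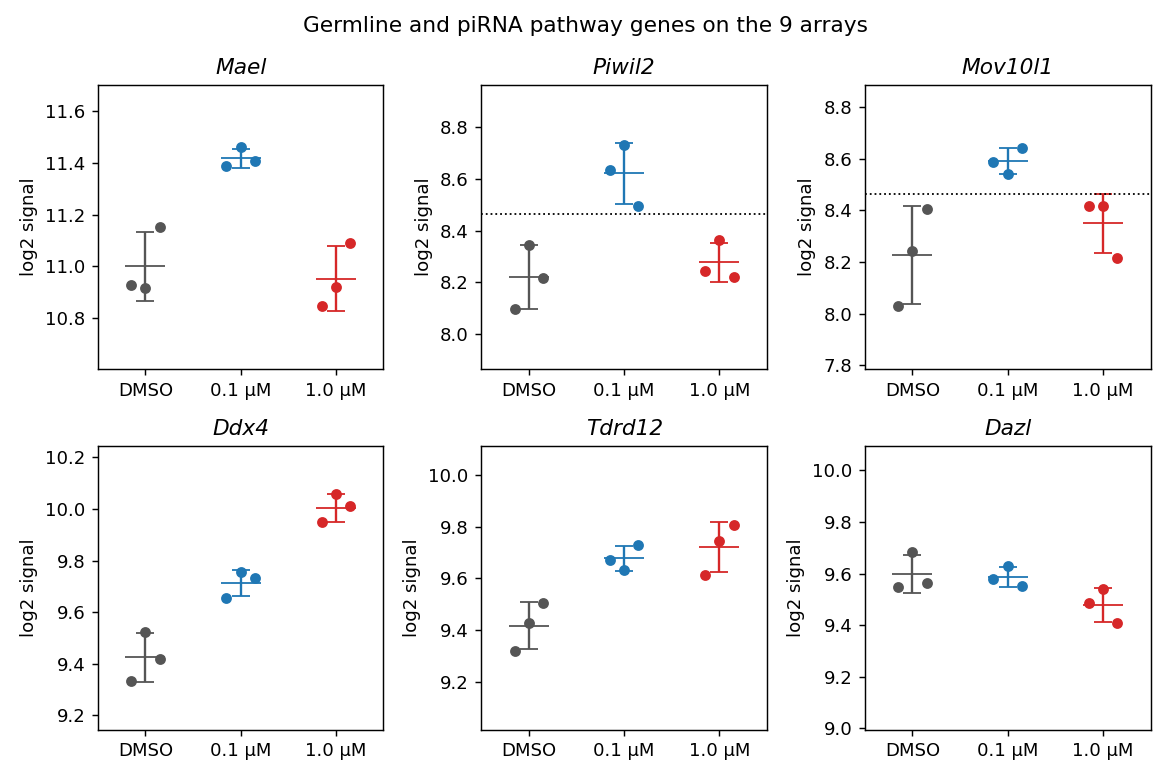
Log2 signal (vertical axis) of the 6 measured genes in DMSO, 0.1 μΜ and 1.0 μΜ 5-ITu. Each point is 1 array, the bar and whiskers are the mean ± SD of 3 arrays, and the dotted line marks the background threshold at 8.46. For Mael, Piwil2, Mov10l1, Ddx4 and Tdrd12 the 3 arrays at 0.1 μΜ lie above the 3 DMSO arrays, and for Dazl they overlap. Such a separation was found in 17.8% of the tested probe sets.

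Mael encodes Maelstrom, a nuage protein needed for transposon silencing in male germ cells. Its log2 signal was 10.93, 10.92 and 11.15 in DMSO (replicates 1 to 3), 11.39, 11.46 and 11.41 at 0.1 μΜ, and 10.84, 10.92 and 11.09 at 1.0 μΜ. The 0.1 μΜ arrays lay above all others, and the DMSO and 1.0 μΜ arrays overlapped. The mean ± SD (n = 3) was 11.00 ± 0.13, 11.42 ± 0.037 and 10.95 ± 0.13. The rise at 0.1 μΜ was 0.42 (SE 0.079, limma adjusted p = 0.017). At 1.0 μΜ the difference from DMSO was -0.048 (adjusted p = 0.68, 95% interval -0.22 to 0.13), and between the doses Mael fell by 0.47 (SE 0.079, adjusted p = 0.0027).

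Piwil2 encodes the PIWI protein MILI, which binds piRNAs. Its log2 signal was 8.10, 8.34 and 8.22 in DMSO, 8.64, 8.73 and 8.50 at 0.1 μΜ, and 8.25, 8.36 and 8.22 at 1.0 μΜ. Every array at 0.1 μΜ was above the threshold and above all other arrays, and the 6 others lay under the threshold. The change was 0.40 at 0.1 μΜ (SE 0.079, limma adjusted p = 0.020) and 0.057 at 1.0 μΜ (adjusted p = 0.62). Between the doses Piwil2 fell by 0.34 (SE 0.079, adjusted p = 0.011). On signals this close to background, a log2 change can be smaller than that of the transcript.

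Mov10l1 encodes the RNA helicase that starts the processing of piRNA precursors. Its log2 signal was 8.03, 8.24 and 8.41 in DMSO, 8.59, 8.54 and 8.64 at 0.1 μΜ, and 8.42, 8.42 and 8.22 at 1.0 μΜ. As for Piwil2, the 0.1 μΜ arrays were the only ones above the threshold. The DMSO arrays spread more than for any other measured member (SD 0.19). The change of 0.36 at 0.1 μΜ (SE 0.092) had a limma adjusted p of 0.049 and, without the filter on low signal, of 0.051. With 1 array left out, its adjusted p ranged from 0.025 to 0.15. At 1.0 μΜ the change was 0.12 (adjusted p = 0.35), and the difference between the doses was -0.24 (adjusted p = 0.077), with no overlap of the arrays.

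Ddx4, the Vasa homologue, encodes a DEAD-box RNA helicase of the nuage and is a widely used germ cell marker. Its log2 signal was 9.33, 9.52 and 9.42 in DMSO, 9.66, 9.75 and 9.73 at 0.1 μΜ, and 9.95, 10.06 and 10.01 at 1.0 μΜ. The 3 groups did not overlap and followed the order of the doses. The rise over DMSO was 0.29 at 0.1 μΜ (SE 0.058, limma adjusted p = 0.022) and 0.58 at 1.0 μΜ (SE 0.058, adjusted p = 0.00021). The step between the doses was 0.29 (SE 0.058, adjusted p = 0.0059). Ddx4 was the only measured member that rose between the doses.

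Tdrd12 encodes a Tudor domain protein that acts with PIWI proteins in the secondary production of piRNAs. Its log2 signal was 9.32, 9.43 and 9.50 in DMSO, 9.67, 9.63 and 9.73 at 0.1 μΜ, and 9.61, 9.74 and 9.81 at 1.0 μΜ. All 6 treated arrays were above all DMSO arrays, and the doses overlapped. The rise was 0.26 at 0.1 μΜ (SE 0.065, limma adjusted p = 0.046) and 0.30 at 1.0 μΜ (SE 0.065, adjusted p = 0.0079). The difference between the doses was 0.044, with a 95% interval of -0.10 to 0.19.

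Dazl encodes an RNA-binding protein that controls translation in germ cells. Its log2 signal was 9.55, 9.68 and 9.56 in DMSO, 9.58, 9.63 and 9.55 at 0.1 μΜ, and 9.49, 9.54 and 9.41 at 1.0 μΜ. The DMSO and 0.1 μΜ arrays overlapped, and the 1.0 μΜ arrays lay just below both groups. The change was -0.010 at 0.1 μΜ (limma adjusted p = 0.93, 95% interval -0.13 to 0.11) and -0.12 at 1.0 μΜ (adjusted p = 0.13, 95% interval -0.24 to 0.0031). The difference between the doses was -0.11 (adjusted p = 0.16).

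**Figure D2:**
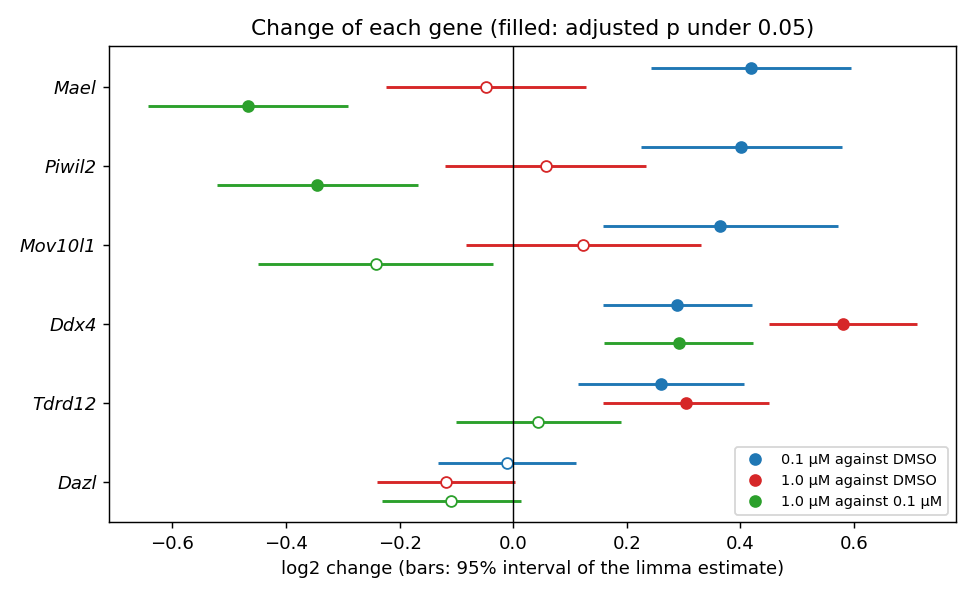
Log2 change of each measured gene (horizontal axis, with 95% intervals from limma) at 0.1 μΜ against DMSO, at 1.0 μΜ against DMSO and between the doses. Filled points have an adjusted p under 0.05. At 0.1 μΜ all genes but Dazl are filled, and at 1.0 μΜ only Ddx4 and Tdrd12.

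Of the 4 measured members above the threshold on all 9 arrays, 3 rose at 0.1 μΜ (Mael, Ddx4 and Tdrd12). Among the 8691 probe sets above it on all arrays, fitted by themselves, limma called 3.88% higher at 0.1 μΜ. With Piwil2 and Mov10l1, 5 of the 6 members rose and none fell, where 4.66% of the 9911 tested probe sets rose and 1.56% fell. Piwil2 and Mov10l1 entered the test through the group in which they were high. Of the 48 tested probe sets above the threshold on the 3 arrays at 0.1 μΜ and on no other, 60.4% were called higher at that dose, and of the 413 tested probe sets with a DMSO mean under the threshold, 22.8% were. The arrays of these 5 genes lay wholly above DMSO, a separation found in 17.8% of the tested probe sets. The members were named with results of these arrays already known, so their count is a description of these genes and no independent evidence for a direction. None of the changes at 0.1 μΜ passed the 1.5-fold threshold of the methods (0.575% of the tested probe sets rose and 0.131% fell past it at an unadjusted p under 0.05).

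**Figure D3:**
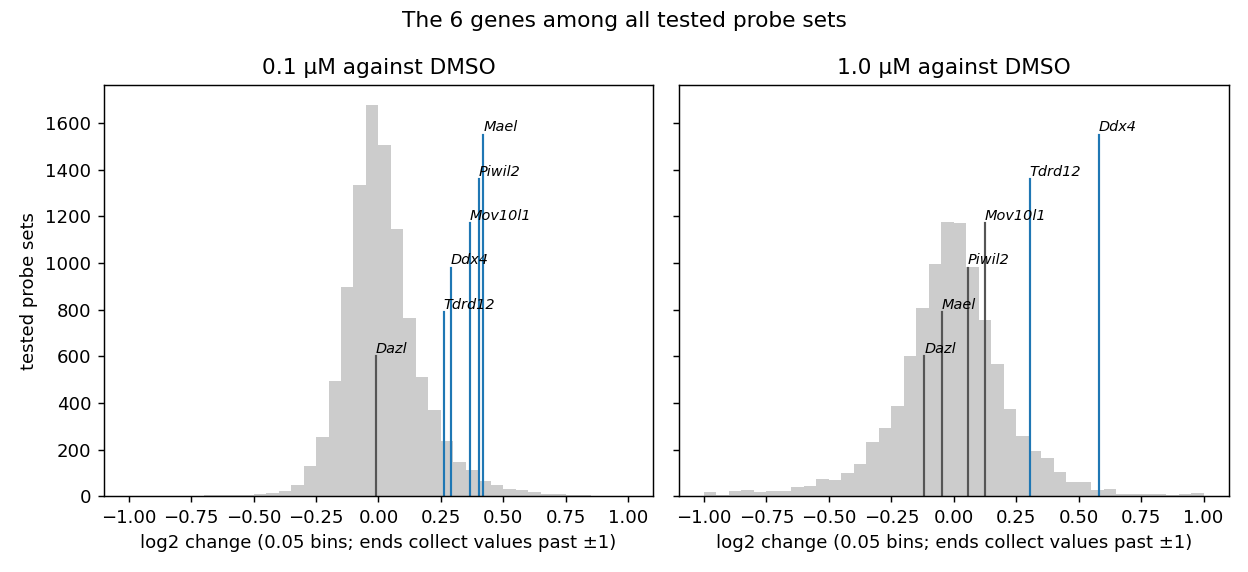
Distribution of the log2 changes of the 9911 tested probe sets (horizontal axis; the vertical axis counts probe sets) at 0.1 μΜ and at 1.0 μΜ against DMSO, with the 6 measured genes marked by lines, blue at an adjusted p under 0.05, whose height has no meaning. At 0.1 μΜ Mael, Piwil2, Mov10l1, Ddx4 and Tdrd12 lie in the right tail and Dazl at the centre, and at 1.0 μΜ Ddx4 lies farthest to the right of the 6.

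At 1.0 μΜ against DMSO, 2 of the 6 members rose (Ddx4 and Tdrd12) and none fell, where 13.4% of the tested probe sets rose and 14.3% fell. The arrays of Ddx4 and Tdrd12 lay wholly above DMSO and those of Dazl wholly below, where 18.6% and 20% of the tested probe sets did so. Both comparisons use the same DMSO arrays. Between the doses, Ddx4 rose and Mael and Piwil2 fell, where 12.3% of the tested probe sets rose and 17.4% fell. The arrays of Mael, Piwil2, Mov10l1 and Dazl at 1.0 μΜ lay wholly below those at 0.1 μΜ, a separation found in 28.1% of the tested probe sets, and those of Ddx4 wholly above, as in 23.6%.

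Nearly all the calls at 0.1 μΜ needed each of the 3 treated arrays. When replicate 1, 2 or 3 at 0.1 μΜ was left out, 0, 0 and 1 of the members (Piwil2) passed, while the share of all tested probe sets called higher fell to 1.31%, 1.37% and 1.62%. The changes themselves kept their sign: without 1 of these arrays Mael was higher by 0.40 to 0.43 (limma adjusted p = 0.062 to 0.078) and Ddx4 by 0.27 to 0.32 (0.061 to 0.096). Leaving out DMSO replicate 1 or 2, or replicate 2 at 1.0 μΜ, left Mael, Piwil2 and Ddx4 called. Tdrd12 and Mov10l1 lost their calls in each of these cases. DMSO replicate 1 was the lowest DMSO array for 5 of the 6 members, as for 38.0% of all tested probe sets, and without it the rises were 0.38 for Mael, 0.34 for Piwil2, 0.27 for Mov10l1, 0.24 for Ddx4 and 0.21 for Tdrd12. The replicates at 0.1 μΜ were the closest of the 3 groups for 5 of the 6 members and for 61.9% of all tested probe sets. At 1.0 μΜ the calls of Ddx4 and Tdrd12 against DMSO held without any single array.

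Other genes of the germline were read in 4 lists: 22 genes of the piRNA pathway, 31 of meiosis, 20 germline genes known for methylated promoters and 12 of germ cell specification, 84 different genes in all. Of these 30 had a probe set of their own and 29 were tested. At 0.1 μΜ 6 rose, 1 fell and 22 did not pass, where 4.66% of all tested probe sets rose and 1.56% fell. At 1.0 μΜ 6 rose, 6 fell and 17 did not pass, where 13.4% of all rose and 14.3% fell. Between the doses 1 rose and 9 fell, against 12.3% and 17.4% of all. The median change of the 29 genes was 0.11 at 0.1 μΜ, against 0.0015 for all tested probe sets, and 0.00071 at 1.0 μΜ, against -0.0056. Without replicate 1, 2 or 3 at 0.1 μΜ, 1, 1 and 2 of these genes passed at that dose, and without DMSO replicate 1 there were 4. Of all tested probe sets, 1.44%, 1.59%, 1.78% and 4.95% passed in those fits. In the same fits, the rise of Tcl1 at 0.1 μΜ kept its call without any single array.

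**Figure D4:**
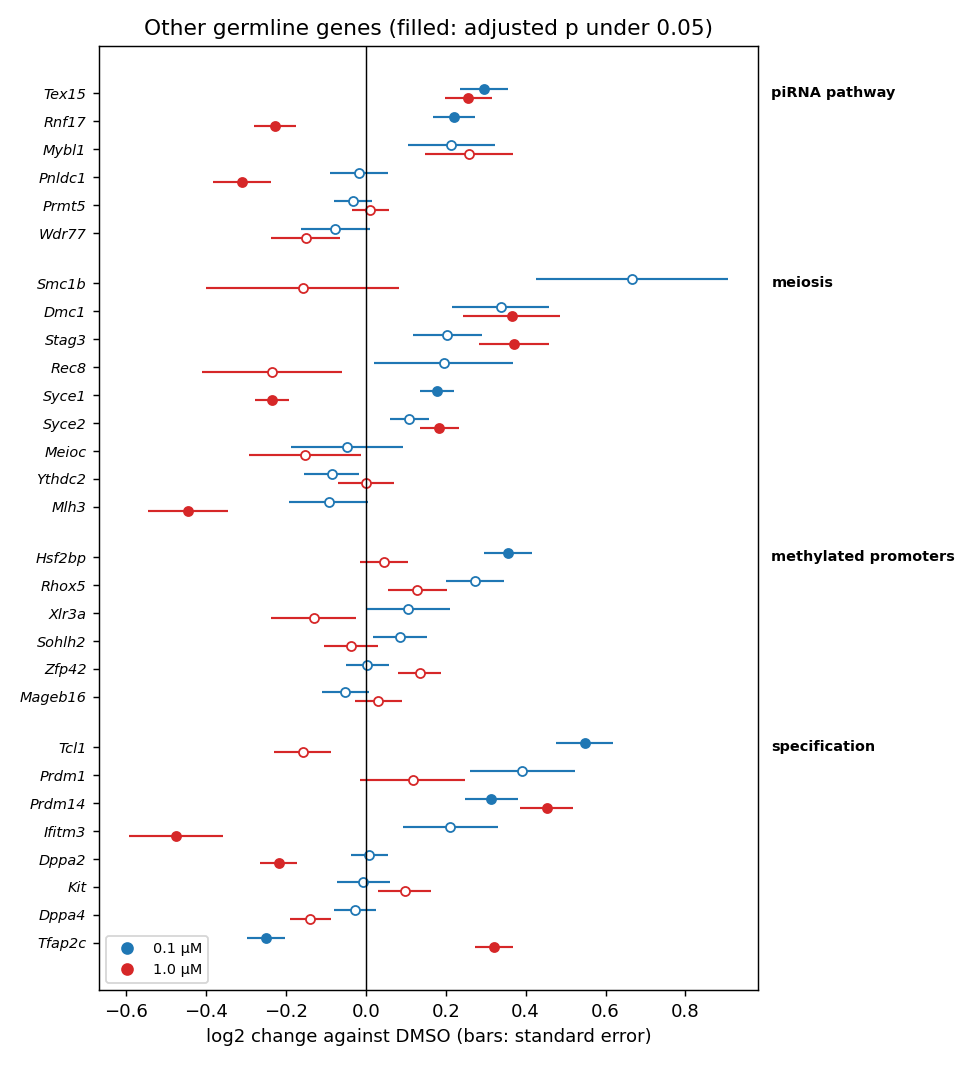
Log2 change against DMSO at 0.1 μΜ and at 1.0 μΜ of the 29 other germline genes that were tested, grouped by list. Bars show the standard error from limma and filled points an adjusted p under 0.05. Tcl1, Hsf2bp, Prdm14, Tex15, Rnf17 and Syce1 are filled above 0 at 0.1 μΜ and Tfap2c is filled below 0.

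In the piRNA list, 2 of the 6 tested genes rose at 0.1 μΜ, against 4.66% of all tested probe sets. Rnf17, a Tudor domain protein of germ cell granules, measured 9.16, 9.29 and 9.26 in DMSO, 9.45, 9.44 and 9.48 at 0.1 μΜ, and 8.93, 9.02 and 9.08 at 1.0 μΜ. It rose by 0.22 at 0.1 μΜ (limma adjusted p = 0.040), fell by 0.23 at 1.0 μΜ (adjusted p = 0.012) and fell by 0.45 between the doses (adjusted p = 0.00045). Thus Rnf17 was high at 0.1 μΜ like Mael and Piwil2, but at 1.0 μΜ it lay below DMSO. Tex15, which takes part in piRNA-directed DNA methylation, measured 8.33, 8.29 and 8.44 in DMSO, 8.67, 8.61 and 8.67 at 0.1 μΜ, and 8.55, 8.72 and 8.57 at 1.0 μΜ. It rose at both doses, by 0.30 (adjusted p = 0.022) and 0.26 (adjusted p = 0.012). Tex15 was above the threshold on the 6 treated arrays alone, and so entered the test through the groups in which it was high. Of the 190 tested probe sets above the threshold on no DMSO array, 38.9% were called higher at 0.1 μΜ and 55.3% at 1.0 μΜ. Pnldc1, the exonuclease that trims piRNA ends, fell by 0.31 at 1.0 μΜ (adjusted p = 0.012), and Mybl1, a transcription factor of meiotic piRNA genes, differed by 0.21 at 0.1 μΜ (adjusted p = 0.26).

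Against 4.66% of all tested probe sets, 1 of the 9 tested genes of the meiosis list rose at 0.1 μΜ. This was Syce1, a central element protein of the synaptonemal complex, which rose by 0.18 (limma adjusted p = 0.039) and fell by 0.24 at 1.0 μΜ (adjusted p = 0.0036). Where 13.4% of all tested probe sets rose at 1.0 μΜ and 14.3% fell, 3 genes of the list rose and 2 fell. Among them Stag3, a subunit of meiotic cohesin, rose by 0.37 (adjusted p = 0.012) and Syce2, another central element protein, by 0.18 (adjusted p = 0.021), while Mlh3, which acts in crossing over, fell by 0.45 (adjusted p = 0.0099). Of the 6 tested genes of the list of methylated promoters, 1 passed at 0.1 μΜ and none at 1.0 μΜ. Over all tested probe sets, 6.23% and 27.7% passed in either direction. Hsf2bp, which brings recombinases to meiotic breaks, rose by 0.36 at 0.1 μΜ (adjusted p = 0.011), and the homeobox gene Rhox5 differed by 0.27 (adjusted p = 0.058).

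The genes of germ cell specification moved in both directions, with 2 of 8 higher and 1 lower at 0.1 μΜ. Over all tested probe sets, 4.66% rose and 1.56% fell at this dose. Tcl1, a coactivator of the kinase AKT that embryonic stem cells also express, measured 10.50, 10.73 and 10.78 in DMSO, 11.22, 11.17 and 11.27 at 0.1 μΜ, and 10.52, 10.47 and 10.55 at 1.0 μΜ. Its rise at 0.1 μΜ was 0.55 (limma adjusted p = 0.0041), and between the doses it fell by 0.71 (adjusted p = 0.00023). The transcription factor Prdm14 rose by 0.31 and 0.45 (adjusted p = 0.024 and 0.0013). The transcription factor Tfap2c fell by 0.25 at 0.1 μΜ (adjusted p = 0.016) and rose by 0.32 at 1.0 μΜ (adjusted p = 0.0013). Ifitm3, a membrane protein of early germ cells, fell by 0.47 at 1.0 μΜ (adjusted p = 0.016). The germ cell genes Nanos3, Nanos2 and Dnd1 had no probe set of their own in the table, and that of Dppa3 was left out by the filter on low signal.

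Among 26 genes that keep germline promoters silent, 25 were tested, and 1 passed at 0.1 μΜ and 5 at 1.0 μΜ. Over all tested probe sets 6.23% and 27.7% passed in either direction, so neither count stands out from the background. The gene that passed at 0.1 μΜ was Dnmt3b, a de novo DNA methyltransferase, at 12.02, 11.96 and 11.85 in DMSO, 11.63, 11.69 and 11.66 at 0.1 μΜ, and 11.39, 11.36 and 11.26 at 1.0 μΜ. It fell by 0.28 at 0.1 μΜ (limma adjusted p = 0.021) and by 0.61 at 1.0 μΜ (adjusted p = 0.00016). Its call at 0.1 μΜ was lost without any 1 of the arrays at that dose and without DMSO replicate 1 or 2. At 1.0 μΜ 2 of these genes rose and 3 fell. Pcgf6, a subunit of the variant Polycomb complex, fell by 0.25 at 1.0 μΜ (adjusted p = 0.0031; at 0.1 μΜ the change was -0.10, adjusted p = 0.18), and Uhrf1, which maintains DNA methylation, rose by 0.30 (adjusted p = 0.0047). Whether these changes have a part in those of the germline genes was not tested.

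Markers of the stem cells and of other cell types were read beside these results. The 12 pluripotent cell markers share Zfp42 and Dppa4 with the germline lists. Of these 12 markers, 11 were tested, 10 of them above the threshold on all arrays. Where 6.23% of all tested probe sets passed at 0.1 μΜ and 27.7% at 1.0 μΜ, none of these markers passed at 0.1 μΜ. At 1.0 μΜ Klf4 rose and Tdgf1 and Utf1 fell. Their summed linear signal ranged from 43537 to 44598 in DMSO, from 45958 to 46405 at 0.1 μΜ and from 42052 to 43341 at 1.0 μΜ. Of 12 fibroblast markers 4 had a probe set of their own (Tagln, Thy1, Cald1 and Acta2), the collagen genes Col1a1, Col1a2 and Col3a1 having none, and Thy1 and Cald1 rose at 0.1 μΜ by 0.54 and 0.27. Thy1 was above the threshold on 5 treated arrays and on no DMSO array, and so entered the test through arrays on which it was high. Tagln fell by 0.59 at 1.0 μΜ against DMSO (limma adjusted p = 0.0018) and by 0.80 between the doses (adjusted p = 0.00038). The summed linear signal of these 4 genes was 1753 to 1823 in DMSO, 2129 to 2445 at 0.1 μΜ and 1715 to 1888 at 1.0 μΜ. It was highest at 0.1 μΜ, as were Mael and Piwil2 and the sums of the pluripotent and the primitive endoderm markers. Over the whole table, 9645, 9780 and 9714 probe sets lay above the threshold on the arrays at 0.1 μΜ. The numbers were 9508, 9469 and 9623 in DMSO and 9523, 9481 and 9517 at 1.0 μΜ. Acta2 and Tagln did not pass at 0.1 μΜ (limma adjusted p = 0.067 and 0.18). Of 8 primitive endoderm markers 2 were tested (Lama1 and Dab2), with sums of 861 to 932, 1075 to 1119 and 818 to 910, and Lama1 rose by 0.39 at 0.1 μΜ and fell by 0.47 between the doses. Of 10 markers of the somatic gonad only Cyp11a1 was tested, and it did not pass at either dose against DMSO. Between the doses Cyp11a1 fell by 0.56 (limma adjusted p = 0.0093). Its signal was above the threshold on 5 of the 9 arrays, none of them at 1.0 μΜ. The part of other cell types in the germline results was not tested.

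Over the 9 arrays, the genes whose signal followed the mean of the 6 members most closely, each member first centred and divided by its SD, were Mir1199, Ets2, Pramel13, Ccpg1 and Niban1. Their Pearson correlations were 0.98, 0.98, 0.98, 0.97 and 0.96, the highest among 8408 probe sets compared, with 1 probe set taken per gene. The arrays share conditions, so these values describe likeness to that mean over 3 groups. The members themselves did not share 1 profile. Their correlations in pairs ranged from -0.54 (Ddx4 and Dazl) to 0.85 (Ddx4 and Tdrd12). Pramel13, of a gene family named for an antigen of melanoma, rose by 0.63 at 0.1 μΜ (limma adjusted p = 0.0044) and by 0.26 at 1.0 μΜ (adjusted p = 0.045). Ets2, an ETS family transcription factor, rose by 0.35 at 0.1 μΜ (adjusted p = 0.036) and differed by 0.14 at 1.0 μΜ (adjusted p = 0.22).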

How the data were processed

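RNA of 9 cultures of E14 cells (3 with DMSO, 3 with 0.1 μΜ and 3 with 1.0 μΜ 5-ITu) had been measured with 1 array per replicate (Affymetrix Mouse Gene 2.0 ST). The deposited values are log2 signals that the authors background-corrected, normalized and summarised by RMA in Affymetrix software. RMA compresses differences of signals near background. The table holds 10476 probe sets, each above the threshold of the methods (8.46 on the log2 scale) on at least 1 array, so genes below it on every array have no value here. Symbols came from the platform annotation, by which 8854 probe sets carry 1 symbol, 668 several and 954 none. No coordinates of probe sets are given. The replicates are described as biological, and their number limits the precision.

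A probe set was tested if 3 or more arrays exceeded the threshold, which left 9911, and 1 model over all 9 arrays was fitted in R 4.3.3 with lmFit, contrasts.fit and eBayes of limma 3.58.1. Tests are two-sided, p values were adjusted over all tested probe sets (Benjamini-Hochberg), and the threshold was 0.05. "Rose" and "fell" are used for changes past it. The named genes are every member, up to 4 genes per list with the smallest moderated F p, and the 5 genes most like the members. The members and lists were chosen with earlier results of these data known. The script was tested on simulated data. Alternatives were no filter and 2 stricter ones, 2 groups per fit, quantile normalization, a block for the replicate number, weights for the arrays, a robust eBayes with a trend, the one-way F over the groups that the methods name, an adjusted p under 0.1, a fold over 1.5 with an unadjusted p under 0.05, 1 probe set per gene, and each array left out in turn. Promoter windows are from RefSeq (GRCm38.p6). The plots come from Python 3.11.15 and matplotlib 3.10.9.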

Additional observations from a re-analysis of the deposited data

How the results depend on the processing

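With 3 arrays per condition, and a signal near background for Piwil2 and Mov10l1, small changes of the germline genes are measured loosely. The changes of Mael, Piwil2, Mov10l1, Ddx4 and Tdrd12 at 0.1 μΜ stayed above 0 in each alternative run. Of the 5 members called at 0.1 μΜ, 3 were called with a filter on all 9 arrays, 3 with a filter on the mean, where Piwil2 and Mov10l1 were no longer tested in both cases, 3 after quantile normalization, 0 past 1.5-fold, and 0 to 5 with 1 array left out. At 1.0 μΜ, 2 members were called against DMSO, 4 by the one-way F, which tests the 3 groups at once and no pair, 0 past 1.5-fold, and 2 to 2 with 1 array left out. Between the doses the count was 3, with 0 past 1.5-fold and 3 to 4 with 1 array left out. Of all probe sets in each fit, the 2 filters called 5.48% and 5.71% at 0.1 μΜ and quantile normalization 6.24%. The one-way F called 24.7%. Past 1.5-fold, 0.706%, 2.97% and 2.87% were called at 0.1 μΜ, at 1.0 μΜ and between the doses. With 1 array left out, the shares called ranged from 1.44% to 7.85%, from 19.6% to 27.8% and from 18.1% to 32.6%. For the other germline genes the counts were 7 at 0.1 μΜ, 12 at 1.0 μΜ and 10 between the doses. They were 1, 0 and 3 past 1.5-fold, and with 1 array left out they ranged from 1 to 7, from 10 to 13 and from 7 to 13. Mov10l1 at 0.1 μΜ lost its call in 14 of 19 alternatives. The changes that turned sign, given with their range over the fits with 1 array left out, were uncalled and near 0: Dazl at 0.1 μΜ (0.032 without DMSO replicate 2 and 0.0072 without 0.1 μΜ replicate 3, in a range of -0.035 to 0.032), Mael at 1.0 μΜ against DMSO (0.028 without DMSO replicate 3 and 0.0055 without 1.0 μΜ replicate 1, in a range of -0.12 to 0.028) and Piwil2 at 1.0 μΜ against DMSO (-0.0038 without DMSO replicate 1, in a range up to 0.12). The causes of these shifts were not tested. Reading every probe set of a member instead of the brightest gave no other value, since each had 1.

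The groups share replicate numbers 1 to 3. Deviations from the group means correlated by -0.023 to 0.51 over the 9 pairs of arrays with the same number and by -0.44 to 0.26 over the 18 others. These ranges overlapped, and the block was kept as an alternative. As a hint of pairing from the data, not from the design, 8 of 9 arrays correlated best with 1 of their own number. With the replicate block, 4 members were called at 0.1 μΜ (Mov10l1 was not), 2 at 1.0 μΜ and 3 between the doses. Of the other germline genes, 9, 13 and 10 were called. In that fit 8.17%, 30.8% and 32.5% of all tested probe sets were called.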
